A study of Sus scrofa with 3 samples.

Results

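miR-204 and miR-184, listed in the counts as ssc-miR-204 and ssc-miR-184, are 2 microRNAs (miRNAs) that stood out in the liver of the Chinese wild boar, and they are 2 of the 411 mature miRNA names in the deposited counts. They were picked by name because their ratios of wild boar over the other breeds were among the highest. Those ratios therefore describe the libraries and test nothing. The study sequenced small RNA from the liver of male Chinese wild boar, Enshi black and Large White pigs at postnatal day 90. The Enshi black pig is a Chinese domestic breed, and the Large White pig is a European commercial breed. There was 1 library for each of the 3 breeds, and no treatment or genetic change is given. The labels speak of 3 male pigs without tying an animal to a library, so a difference between libraries cannot be told apart from a difference between individual pigs.

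A miRNA is a short RNA that guides the Argonaute proteins to messenger RNAs matching its seed, bases 2 to 8, and lowers their translation and stability. miR-204 is known from the eye, kidney and pancreatic islets. In medaka fish it takes part in eye development through the transcription factor gene Meis2, and in human and mouse mesenchymal cells it represses the bone cell regulator RUNX2. In human and mouse its gene lies in an intron of TRPM3, a cation channel gene, and miR-211 shares its seed. miR-184 is known from the lens and cornea, and also from brain and testis. In mouse islets it represses Argonaute 2 itself. Neither is a typical hepatocyte miRNA. The hepatocyte miR-122 had the most reads of any name in each library, with 3090486 in wild boar, 2644501 in Enshi black and 3040156 in Large White.

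miR-204 had 12782 reads in the wild boar library, against 3100 in the Enshi black and 2381 in the Large White library. Levels are given as counts per 1000000 reads (CPM) scaled by the trimmed mean of M-values (TMM), which evens out differences in library makeup. On that scale miR-204 stood at 1516 CPM in wild boar, with an exact Poisson 95% interval of 1490 to 1543. It stood at 334 CPM in Enshi black (322 to 346) and at 420 CPM in Large White (403 to 437). The wild boar library was the high one, and none of these intervals overlapped. All intervals here cover counting error only, since reads carried no molecular identifiers and no breed had a replicate. In tissue RNA, more cells of a type and more RNA per cell cannot be told apart.

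miR-204 ranked 51 among the 307 miRNAs with a read in wild boar, next to miR-29c above it and let-7e below it. It ranked 93 of 311 in Enshi black, between miR-30e-3p and miR-128, and 91 of 304 in Large White, between miR-27a and miR-215. Its share of all miRNA reads was 0.163% in wild boar (exact Clopper-Pearson 95% interval 0.161 to 0.166). That share was 0.0401% in Enshi black (0.0387 to 0.0415) and 0.0324% in Large White (0.0311 to 0.0338).

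miR-184 was far scarcer, with 421 reads in the wild boar library, against 26 in the Enshi black and 39 in the Large White library. Its level was 49.9 CPM in wild boar (45.3 to 54.9) and 2.80 CPM in Enshi black (1.83 to 4.10). In Large White it was 6.88 CPM (4.89 to 9.40). The wild boar library was again the high one and its interval lay far from the other two. miR-184 ranked 155 of 307 in wild boar, 244 of 311 in Enshi black and 220 of 304 in Large White. Its neighbours in rank were miR-296-3p and miR-210 in wild boar, miR-432-5p and miR-2483 in Enshi black, and miR-452 and miR-30c-1-3p in Large White.

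**Figure D1:**
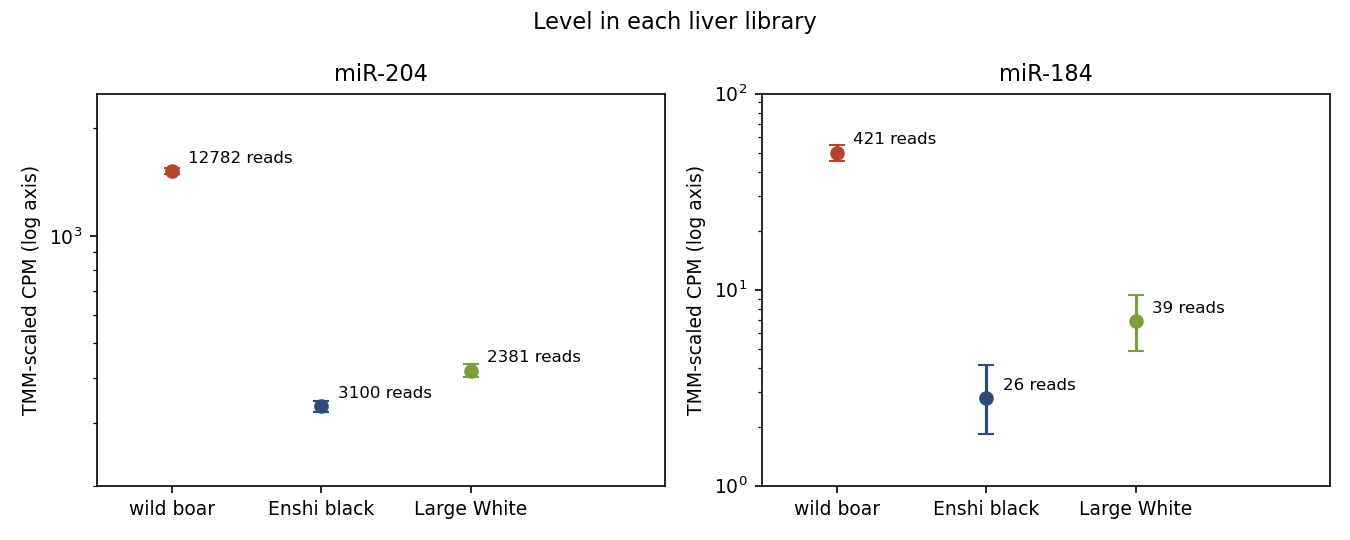
Level of miR-204 (left) and miR-184 (right) in the 3 liver libraries, as TMM-scaled CPM on a log axis, with exact Poisson 95% intervals and the read count beside each point. The wild boar library is the highest for both, at 1516 CPM for miR-204 and 49.9 CPM for miR-184.

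Ratios were computed for the 208 miRNAs with a mean of at least 10 CPM over the libraries. By the rule used here, a miRNA was called higher or lower in a library at a difference of 2-fold or more, given an exact conditional-binomial 95% interval without 1. Both miRNAs passed the minimum, with a mean of 786 CPM for miR-204 and 20.8 CPM for miR-184 on library totals. miR-184 did so through the wild boar library, since on library totals it had 53.8 CPM there, against 3.36 CPM in Enshi black and 5.31 CPM in Large White. It therefore had to differ in order to enter. The reads of both were whole numbers on a single precursor each, so neither shared reads with another name. Of the 208 miRNAs, 65 had a summed count more than 0.05 from a whole number in at least 1 library, taken here as a sign of reads shared with another name.

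Against Enshi black, wild boar had 17.8 times the level of miR-184 (12.0 to 27.6) and 4.54 times that of miR-204 (4.37 to 4.73). These were the highest and the second highest of the 208 ratios, and the next was miR-4332 at 3.79 (3.25 to 4.43), whose interval overlaps that of miR-204 at its edge. Of the 208, 13 were higher in wild boar by the rule, which is 6.25%, and 13 were lower, with a median log2 ratio of 0.01. On library totals the split was 7 higher and 15 lower. Against Large White, wild boar had 7.26 times the level of miR-184 (5.22 to 10.4) and 3.61 times that of miR-204 (3.46 to 3.78). Here miR-184 ranked 2, behind miR-758 of the imprinted DLK1-DIO3 cluster at 10.1 (6.24 to 17.2) and ahead of miR-299 of the same cluster at 5.26 (3.63 to 7.85). miR-204 ranked 7, with miR-331-3p above it at 3.78 (3.42 to 4.18) and miR-4334-3p below it at 3.59 (3.20 to 4.05). The intervals of each of these pairs of neighbours overlap that of the member beside them, so the counts settle neither the rank of miR-184 nor that of miR-204 in this comparison. Of the 208, 24 were higher in wild boar by the rule, which is 11.5%, and 28 were lower, with a median log2 ratio of −0.02. That split was 45 and 19 on library totals and 43 and 19 on totals without miR-122. Both comparisons share the wild boar library, so 1 unusual library would raise both ratios. The members were chosen on these ratios, so nothing is read from the calls.

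**Figure D2:**
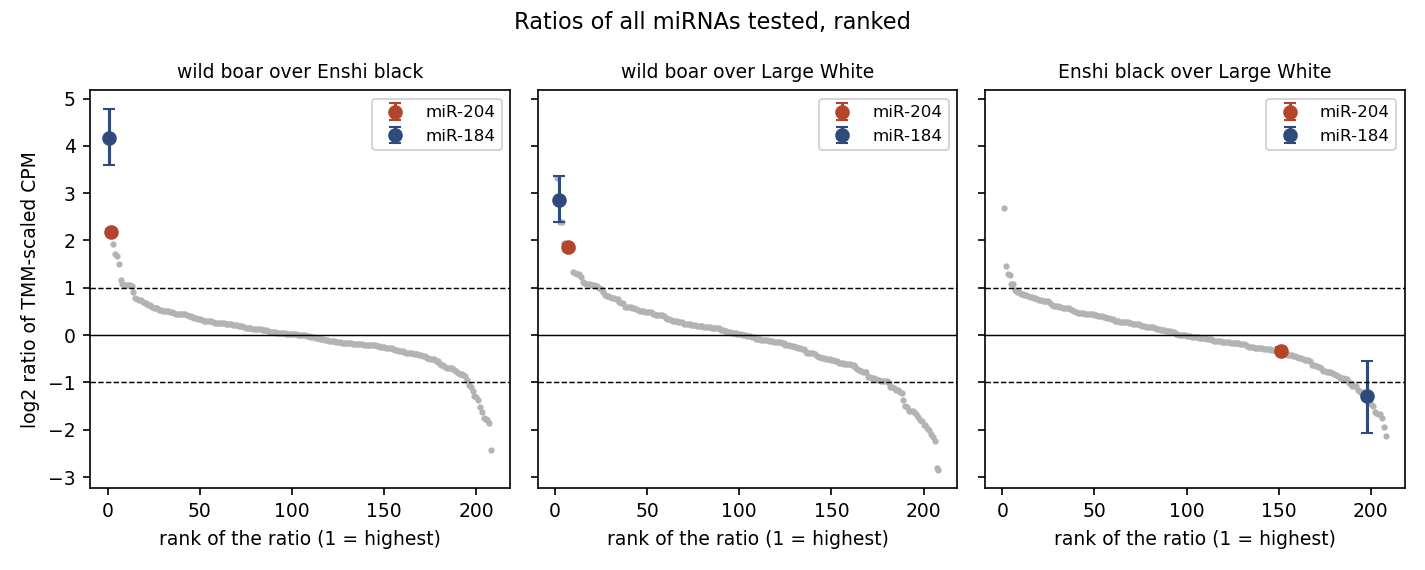
Log2 ratio of TMM-scaled CPM for all 208 miRNAs in each pair of libraries, ranked from the highest, with the members in colour and their exact 95% intervals. Dashed lines mark 2-fold. miR-184 and miR-204 rank 1 and 2 for wild boar over Enshi black, 2 and 7 for wild boar over Large White, and 198 and 151 for Enshi black over Large White.

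The domestic breeds were compared in the same way. miR-204 had an Enshi black over Large White ratio of 0.795 (0.753 to 0.839), within 2-fold, and ranked 151 of 208. Its neighbours in that order were let-7i at 0.800 and miR-135 at 0.794, which lie inside its interval. This direction depends on the scaling, as the ratio was 1.24 (1.17 to 1.31) on library totals and 1.10 (1.04 to 1.16) on totals without miR-122. miR-184 had a ratio of 0.407 (0.238 to 0.686) and counted as lower in Enshi black, among 21 such miRNAs, which is 10.1% of the 208, while 6 were higher. On library totals 57 were higher and 6 lower, and on totals without miR-122 the split was 37 and 8. The miR-184 call was lost on library totals, where the ratio was 0.633 with an interval of 0.370 to 1.07, and on totals without miR-122, where it was 0.564 (0.330 to 0.950). With 26 against 39 reads, the order of the domestic breeds for miR-184 is not settled. The order wild boar above both held for miR-204 and for miR-184 under each of the 4 scalings. Over those scalings miR-204 ranged from 4.07 to 4.54 against Enshi black and from 3.61 to 5.04 against Large White. miR-184 ranged from 16.0 to 17.8 and from 7.26 to 10.1.

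**Figure D3:**
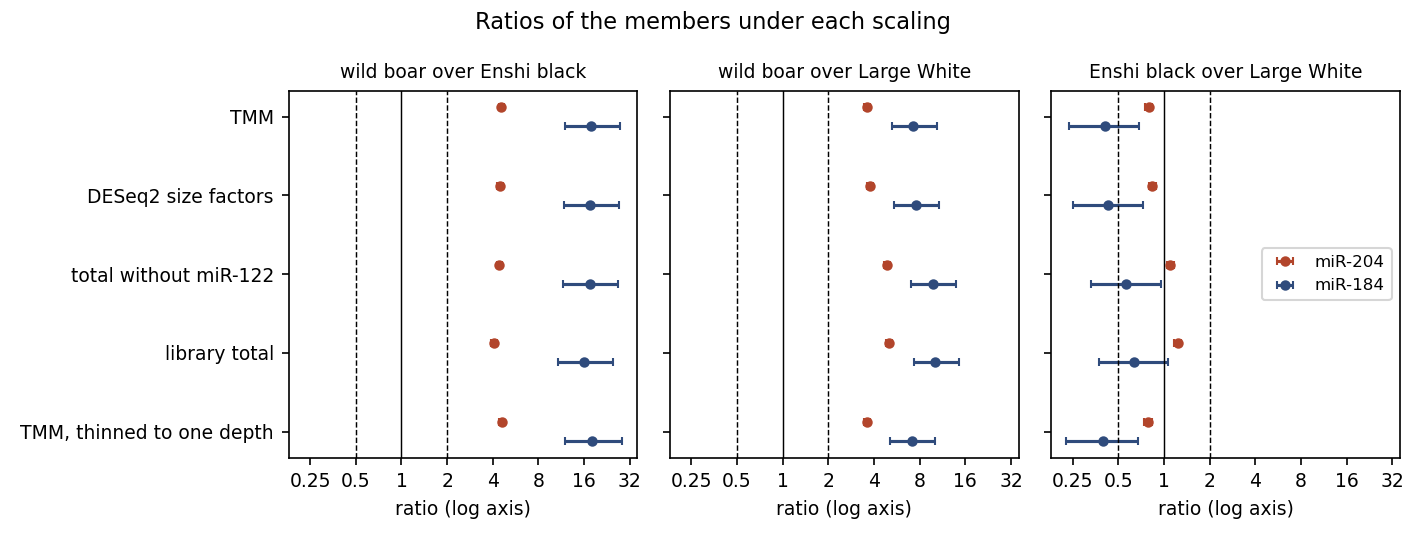
Ratios of miR-204 and miR-184 in the 3 pairs of libraries under 4 scalings and after thinning to a common depth, on a log axis with exact 95% intervals. Dashed lines mark 2-fold. Both wild boar ratios stay above 2-fold throughout, while for Enshi black over Large White miR-204 lies at 0.795 with TMM and 1.24 on library totals.

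The same data can be read with no scaling at all, by counting one miRNA against another in the same library. In wild boar there were 30.4 miR-204 reads for each miR-184 read (27.6 to 33.5), against 119 in Enshi black (81.2 to 183) and 61.1 in Large White (44.5 to 86.1). The wild boar library thus had the smallest excess of miR-204 over miR-184. The difference between wild boar and Enshi black was 3.93 times as large for miR-184 as for miR-204 (conditional odds ratio, 2.64 to 6.09). The corresponding value for wild boar over Large White was 2.01 (1.44 to 2.88). For Enshi black over Large White it was 0.512 (0.298 to 0.866). Each of these 3 intervals leaves out 1, but they cover counting error only. The members were chosen on their wild boar ratios, so these values describe the libraries and test nothing.

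Set against the hepatocyte miR-122, miR-204 had 4136 reads per 1000000 miR-122 reads in wild boar, 1172 in Enshi black and 783 in Large White. miR-184 had 136 in wild boar, 9.83 in Enshi black and 12.8 in Large White. By this measure wild boar had 3.53 times the miR-204 of Enshi black (3.39 to 3.67) and 5.28 times that of Large White (5.05 to 5.52). For miR-184 those values were 13.9 (9.32 to 21.5) and 10.6 (7.64 to 15.2). The Enshi black over Large White value was 1.50 for miR-204 (1.42 to 1.58) and 0.766 for miR-184 (0.448 to 1.29), whose interval holds 1. miR-122 was itself not level on the TMM scale, so its own differences enter these values. Its ratio was 1.29 for wild boar over Enshi black, 0.684 for wild boar over Large White and 0.531 for Enshi black over Large White.

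Of the 208 miRNAs, 10 were higher by the rule in wild boar than in both other libraries, which is 4.81%. Ordered by the smaller of the 2 ratios, miR-184 led at 7.26, then came miR-4332 at 3.79 and miR-204 at 3.61. On library totals, on totals without miR-122 and with DESeq2 size factors, miR-204 ranked 2 in this order. The others were miR-4334-3p, miR-299, miR-127, miR-365-3p, miR-374b-5p, miR-331-3p and miR-339. This count was between 7 and 11 under the other scalings and after thinning, and both members were in it each time. The members were chosen on these ratios and the scalings reuse the same reads, so their place in the list tests nothing.

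Likeness of profile was measured as the Euclidean distance between log2(TMM CPM + 1) values, each centred on its mean over the 3 libraries. Only miRNAs past the minimum were compared, so miR-124a, described below and also highest in wild boar, was left out. Of the 207 others compared, miR-204 was the nearest to miR-184, at a distance of 1.11. miR-184 was only 13th from miR-204, since its swing between libraries was wider. The centred log2 level of miR-184 was 2.15 in wild boar, −1.60 in Enshi black and −0.55 in Large White, and that of miR-204 was 1.34, −0.84 and −0.51.

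The 5 profiles nearest to miR-204 were miR-4332 (0.27), miR-4334-3p (0.39), miR-299 (0.68), miR-339 (0.76) and miR-365-3p (0.80). miR-4332 had 742 reads in wild boar, 216 in Enshi black and 130 in Large White. The nearest to miR-184 after miR-204 were miR-4332 (1.33), miR-4334-3p (1.46), miR-299 (1.61) and miR-127 (1.71), the last 2 from the DLK1-DIO3 cluster. miR-127 had 3288 reads in wild boar, 1269 in Enshi black and 424 in Large White. miR-4334-3p and miR-339 are among those with counts that are not whole. With 3 libraries, a near profile says only that a miRNA was also highest in wild boar.

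**Figure D4:**
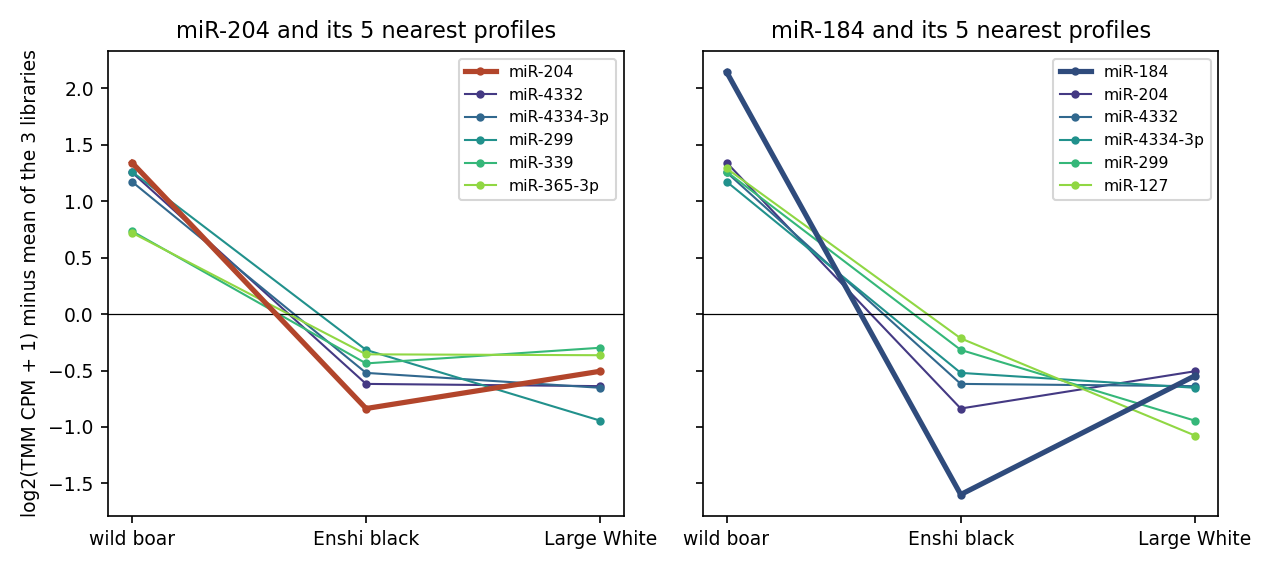
Profiles of miR-204 (left) and miR-184 (right) with the 5 miRNAs nearest to each among those past the minimum, as log2(TMM CPM + 1) minus the mean of the 3 libraries. All lines peak in wild boar, and miR-184 spans the widest range, 2.15 in wild boar to −1.60 in Enshi black.

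The members are not neighbours in the genome. In RefSeq's Sscrofa 11.1 annotation, used here for names and gene order only, the gene MIR204 lies within the span of TRPM3, between the protein-coding genes KLF9 and TMEM2. MIR184 lies within the span of the long noncoding RNA gene LOC106507693, between RASGRF1 and ANKRD34C, on another chromosome. The nearest annotated miRNA gene on each side was also read, with no limit on distance, so these genes need not lie close to the members. On one side of MIR204 is MIR32, whose miR-32 had 1759 reads in wild boar, 1296 in Enshi black and 1820 in Large White, with ratios of 1.50 for wild boar over Enshi black and 0.650 for wild boar over Large White. On the other side is MIR9823, whose miR-9823-5p had 0 reads in each library. For MIR184 these genes were MIR133B and MIR1839, and miR-133b had 4, 5 and 7 reads in wild boar, Enshi black and Large White. miR-1839-5p had 42, 35 and 22 reads in the same libraries.

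Since miR-204 and miR-184 are best known from the nervous system, eye, islets and epithelia, miRNAs typical of those tissues were read beside them. Of 25 such miRNAs, 18 had an entry in the counts used here and 7 passed the minimum. After TMM scaling, 0 of the 7 were higher in wild boar by the rule in either comparison, beside 6.25% of all miRNAs over Enshi black and 11.5% over Large White. Of the 7, 2 were lower than in Large White, beside 13.5% of all. Both counts over Large White depend on the scaling, and with 7 miRNAs they are too small to set apart from those shares. Their median log2 ratio was −0.11 over Enshi black and 0.29 over Large White, beside 0.01 and −0.02 for all 208. The islet and neural miR-7 had 1390 reads in wild boar, 2674 in Enshi black and 3292 in Large White. Its wild boar over Large White ratio was 0.284 (0.267 to 0.303). The neural miR-218 had a ratio of 0.464 (0.432 to 0.500) in that pair, but 0.648 on library totals and 0.627 on totals without miR-122, under 2-fold. The neural miR-9 had ratios of 1.52 over Enshi black and 1.46 over Large White, and on library totals it was past 2-fold higher than in Large White, at 2.03 (1.79 to 2.31). The sensory and eye miR-182 had ratios of 0.750 and 0.622, and the epithelial miR-429 had 0.928 and 1.22.

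Below the minimum lay miR-124a, a neuronal miRNA and one of the most abundant in vertebrate brain. It had 81 reads in the wild boar library, 1 read in the Enshi black and 0 reads in the Large White library. Its level was 9.61 CPM in wild boar and 0.108 CPM in Enshi black. The ratio over Enshi black was 89.3, with a counting interval of 15.6 to 3568. Against Large White, the wild boar level was 18.2 times a floor of 3 reads in that library. That value is on the TMM scale and leaves out the counting error of the 81 reads, so it is not a lower bound. The summed neural list, of which all 11 members had an entry, came to 655 CPM in wild boar, 605 CPM in Enshi black and 690 CPM in Large White. These sums were taken with TMM scaling only, and their order between the libraries depends on it. In Large White, 1 of the members was at 0. miR-153, another neural miRNA, was highest in Large White, with 10 reads in wild boar, 2 in Enshi black and 83 in Large White.

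miR-124a was singled out after its values were seen, in a count without the expression minimum. Among the 272 miRNAs with at least 10 wild boar reads, 20 were at least 2-fold higher in wild boar than in both other libraries, which is 7.35%. Of these, miR-184 and miR-124a were at least 4-fold higher than both, which is 0.735% of the 272. A minimum set on wild boar reads admits miRNAs that are high in that library alone, so these counts and shares lean towards wild boar and nothing is read from them. Whether RNA from another cell type has a part in the miR-204 and miR-184 values was not tested.

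**Figure D5:**
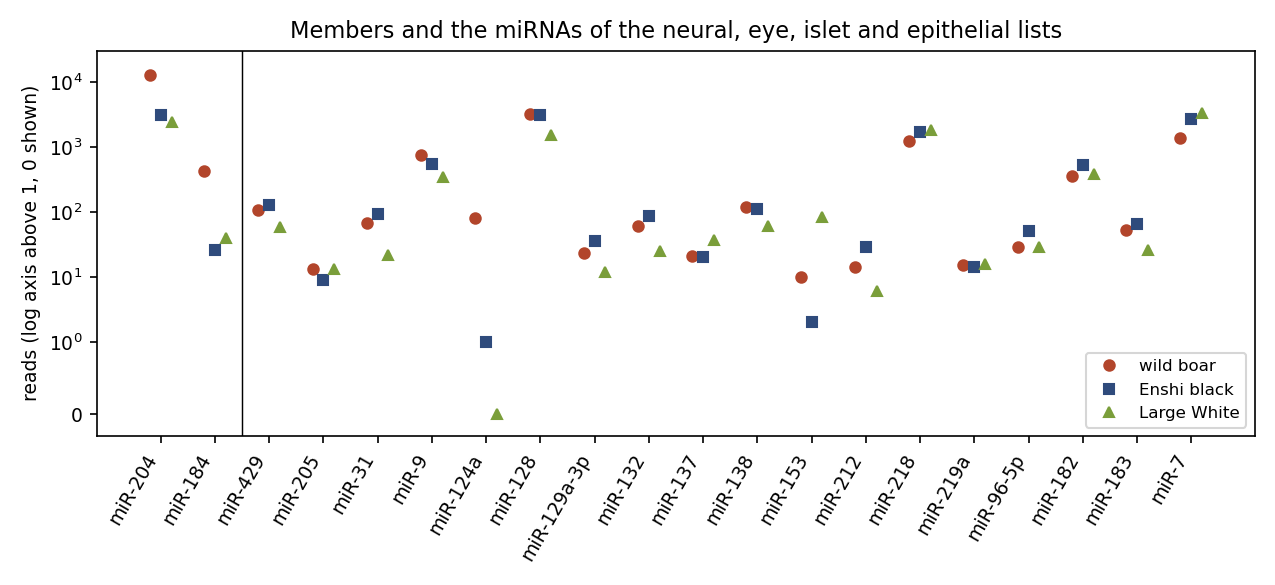
Reads of miR-204 and miR-184 (left of the line) and of the 18 miRNAs of the epithelial, neural, eye and islet lists in the 3 libraries, on an axis that is logarithmic above 1 and shows 0. miR-124a has 81 reads in wild boar, 1 in Enshi black and 0 in Large White, and of the 17 other list entries 10 span more than 2-fold in reads, such as miR-153 with 10, 2 and 83.

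Some markers of other cell types also differed between the libraries. The 4 leucocyte miRNAs with an entry summed to 3582 CPM in wild boar, 10710 CPM in Enshi black and 20630 CPM in Large White, none at 0. Of these, miR-142-3p, miR-142-5p and miR-150 were lower in wild boar than in both others, beside 6.25% of all 208 that were lower than in Enshi black and 13.5% that were lower than in Large White. The remaining entry, miR-155-5p, was within 2-fold of both, at 0.938 over Enshi black and 0.609 over Large White. These calls held under each scaling, as did those for the next 2 lists. The 3 red cell miRNAs summed to 3114, 4114 and 5324 CPM in the same order. Of these, miR-144 was lower in wild boar than in Large White, while miR-451 and miR-486 were within 2-fold of both others. The 6 striated muscle miRNAs summed to 176, 230 and 395 CPM, and miR-208b was at 0 in each library. Here miR-1 was lower in wild boar than in both, while miR-133a-3p and miR-499-5p were within 2-fold of both. miR-206, below the minimum, had 17 reads in wild boar, 8 in Enshi black and 32 in Large White. All these sums are on the TMM scale, and the order of Enshi black and Large White in the red cell sum depends on it. The hepatocyte, endothelial and stellate lists had no member past 2-fold between wild boar and either other library after TMM scaling. The exception on other scales was miR-126-5p, at 2.41 over Large White on library totals and 2.33 on totals without miR-122. Their part in the levels of miR-204 and miR-184 was not tested.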

How the data were processed

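Small RNA of 14 to 40 nucleotides from TRIzol-extracted liver RNA was gel-selected and sequenced as single-end Illumina reads, per the labels' protocols. Per the submitters' processing notes, the build was Sscrofa 10.2. Which aligner, counter and miRNA annotation were used is not given in the sources used here. Per the file headers, the authors' values are expected counts per mature miRNA and precursor, with fractions where reads match several entries. The deposited RPM are those counts per 1000000 of a file's sum and served only as a check.

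Counts were summed over precursors, without 6 names that repeat another name's reads, and rounded, leaving 405 names (317 with a read) and totals of 7824836 in wild boar, 7730934 in Enshi black and 7343033 in Large White. The plan for the ratios had assumed whole counts. TMM assumes that the bulk of miRNAs is level between libraries. Its factors (edgeR 4.0.16, R 4.3.3) were 1.08, 1.20 and 0.772 in that order, and shifted log2 ratios by 0.16 for wild boar over Enshi black, by −0.48 for wild boar over Large White and by −0.64 for Enshi black over Large White. Intervals came from scipy 1.17.1. No p-value was computed, as 1 library a breed leaves no spread to test against. Alternatives were library totals, totals without miR-122, DESeq2 1.42.0 size factors, thinning to 7343033 reads, other minimums, a 4-fold threshold and miRNAs without shared reads.

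The members and lists were chosen with earlier results of these data known. Named beside them are their neighbours in level and ratio, the 5 nearest profiles, and list members past the rule. The rule also covered miRNAs sharing a member's seed, which was not applied because no sequences were used here.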

Additional observations from a re-analysis of the deposited data

How the results depend on the processing

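The direction of both members in wild boar, and their place past 2-fold, held in both comparisons under the 3 other scalings and after thinning. Beyond its counting interval, miR-204 moved on library totals to 4.07 for wild boar over Enshi black, 5.04 for wild boar over Large White and 1.24 for Enshi black over Large White, and on totals without miR-122 to 4.88 for wild boar over Large White and 1.10 for Enshi black over Large White. The last pair thus crossed 1. miR-184 kept within its wider intervals.

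The background counts moved more. On library totals 7 miRNAs were higher in wild boar than in Enshi black, 45 were higher in wild boar than in Large White, and 57 were higher and 6 lower in Enshi black than in Large White. On totals without miR-122 the last 3 of these counts were 43, 37 and 8. With no minimum, 317 miRNAs were compared. Of these, 29 were higher and 21 lower in wild boar than in Enshi black, and 38 and 47 than in Large White. In Enshi black, 13 were higher and 39 lower than in Large White. A minimum mean of 100 CPM, which leaves out miR-184, kept 130 miRNAs. The same pairs of counts were then 8 and 6, 13 and 18, and 1 and 12. At 4-fold, among the 208, they were 2 and 1, 4 and 5, and 1 and 1. Without miRNAs of shared reads, 3 of 143 were higher in Enshi black than in Large White. The counts out of 317, 130 and 143 miRNAs also reflect the size of the set. They do not alone show movement from the counts out of 208. Chosen after seeing the data, the set with at least 10 wild boar reads and no mean minimum held 272 miRNAs. Of these, 20 were higher in wild boar than in both others, 2 of them at 4-fold. No paired analysis was possible because each breed has 1 library, and no library could be left out. Depth limits miR-184 in the domestic breeds, where 26 and 39 reads give wide intervals.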
